A study of Mus musculus with 4 samples.

Results

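The genes described here encode the insulin-like growth factor (IGF) ligands, their receptors and their binding proteins: Igf1, Igf2, Igf1r, Igf2r, Igfbp2, Igfbp3, Igfbp4, Igfbp5, Igfbp6 and Igfbp7. They were found on the array as probes outside the controls whose deposited gene name is one of these 10 symbols. That gave 13 of 41174 probes and covered 9 of the 10 genes, all but Igf2r. The accession given for a probe and the synonyms in a RefSeq table added 3 probes, 1 each for Igf2r, Igf2 and Igf1r, for 16 in all. Of these, 14 were kept after a filter on dim probes (12 of the 13 found by name), so that each of the 10 genes had at least 1 kept probe, and 4 genes had more than 1.

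The RNA came from early-stage mammary tumours of 4 FVB/N females, each 26 weeks old. Tumours of 2 mice carried the transgenes MMTV-cdc25a and MMTV-neu together (called bitransgenic below), and tumours of 2 mice carried MMTV-neu alone (called neu), so the neu oncogene was shared by both groups. Cdc25a is a phosphatase that activates cyclin-dependent kinases, neu is the rodent form of the receptor Erbb2, and the mammary tumour virus promoter (MMTV) directs both transgenes chiefly to mammary epithelium. Each bitransgenic tumour was hybridised against 1 neu tumour on 2-colour oligonucleotide arrays, with both dye orientations, which gave 2 mouse pairs and 4 arrays. Values are log2 ratios of bitransgenic over neu, the 2 arrays of a pair are technical repeats, and n = 2 pairs throughout.

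IGF1 and IGF2 are small secreted growth factors that bind the receptor tyrosine kinase IGF1R, which signals through insulin receptor substrates to PI3K and AKT and to the MAP kinases. IGF2R has no kinase. It takes IGF2 up for breakdown and also carries mannose-6-phosphate-tagged enzymes to lysosomes. The binding proteins hold the ligands outside the cell and can block or prolong their action, while IGFBP7 binds IGFs weakly and is known as a matrix-associated protein of vessels. In the mammary gland, IGF1 comes largely from stroma, and IGFBP5 is known for its rise in the involuting gland after weaning.

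On each array, 78.5% to 92.2% of the 41534 spots passed the scanner's background test in green and 82.7% to 87.9% in red. Over all genes, the dye orientations of one pair correlated at 0.65 for the mice of pair 1 and at 0.76 for those of pair 2, and the means of the pairs correlated at 0.35 across genes, which are not independent replicates. The targeted gene Cdc25a gave a mean log2 ratio of 0.05 on its brightest probe and 0.11 on its second, and Erbb2 gave 0.65. The sources used here do not say whether these probes read the transgenes. Of the list of luminal epithelium markers, 16 of 19 measured genes were well above background in both tumours on all 4 arrays. So were 27111 of all 32651 genes.

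None (0) of the 10 genes passed the test between genotypes, which was limma with eBayes on the 2 pair means and Benjamini-Hochberg adjustment over 32651 genes at 0.05. Over all genes 0% passed. At an unadjusted p under 0.05 there were 2 IGF genes, Igf2 and Igfbp6, both lower, against 5.73% of all genes as lower, 3.9% as higher and 9.64% in either direction. By the pair means, 1 IGF gene (Igfbp3) was higher in both pairs and 3 (Igf2, Igfbp4 and Igfbp6) were lower in both, against 31.9% and 28.1% of all genes. Of these, Igfbp3 was only at 0.01 in pair 2 and Igfbp4 only at -0.002 in pair 1. The larger ratios differed between the mouse pairs. Igf1, Igfbp5 and Igfbp7 were lower on both arrays of pair 1 and higher on both arrays of pair 2. Igfbp3 was clearly higher in pair 1 and near 0 in pair 2 on its brightest probe, while its second probe gave 0.04 in pair 1. Igf2r was lower in pair 2 with no settled direction in pair 1. The pairs cannot be compared by a test, since each holds 1 mouse per genotype.

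**Figure D1:**
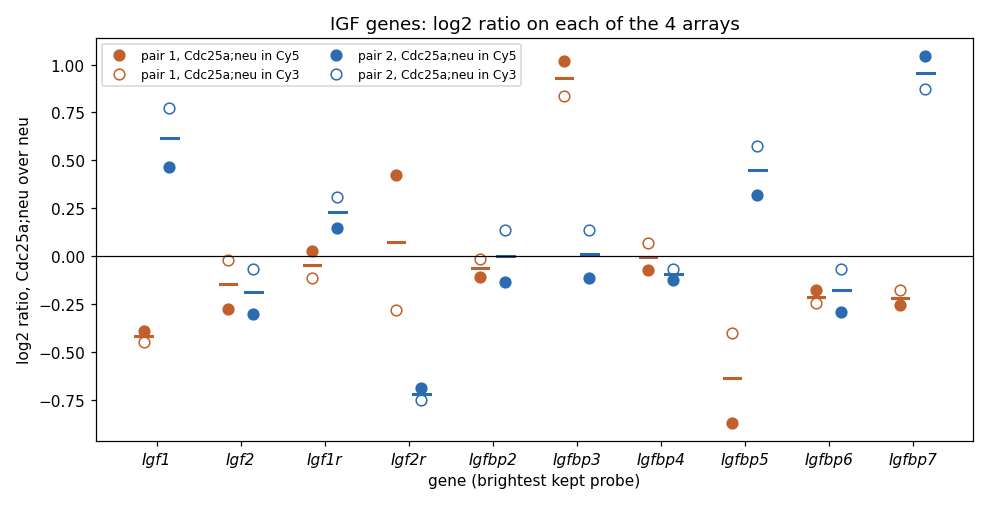
Log2 ratio of bitransgenic over neu (vertical axis) for the brightest kept probe of each IGF gene (horizontal axis), with 1 point per array, filled where the bitransgenic tumour was in Cy5 and open where it was in Cy3. Horizontal bars are pair means. Igf1, Igfbp5 and Igfbp7 lie below 0 in pair 1 and above 0 in pair 2, and only Igf2 and Igfbp6 lie below 0 on all 4 arrays.

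Because Igf1, Igfbp5 and Igfbp7 went opposite ways in the same pairs, the 250 bases before the annotated start of each are shown, 5′ to 3′, from RefSeq on mouse build GRCm38.p6. Capitals mark matches, on either strand, to the GC box GGGCGG. The array files name no genome build, so the promoters were joined to the probes by gene symbol, which matched for all 10 genes.
Igf1 promoter, chr10:87860861-87861110, plus strand: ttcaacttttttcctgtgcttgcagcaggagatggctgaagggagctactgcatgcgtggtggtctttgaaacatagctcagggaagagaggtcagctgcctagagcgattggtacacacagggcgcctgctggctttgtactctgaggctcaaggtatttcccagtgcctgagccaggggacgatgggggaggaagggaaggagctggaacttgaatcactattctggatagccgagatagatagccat
Igfbp5 promoter, chr1:72874866-72875115, minus strand: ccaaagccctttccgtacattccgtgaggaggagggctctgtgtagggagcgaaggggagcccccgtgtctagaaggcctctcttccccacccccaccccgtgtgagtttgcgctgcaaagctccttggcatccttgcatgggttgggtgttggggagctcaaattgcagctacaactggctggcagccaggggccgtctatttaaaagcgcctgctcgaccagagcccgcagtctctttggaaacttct
Igfbp7 promoter, chr5:77408046-77408295, minus strand: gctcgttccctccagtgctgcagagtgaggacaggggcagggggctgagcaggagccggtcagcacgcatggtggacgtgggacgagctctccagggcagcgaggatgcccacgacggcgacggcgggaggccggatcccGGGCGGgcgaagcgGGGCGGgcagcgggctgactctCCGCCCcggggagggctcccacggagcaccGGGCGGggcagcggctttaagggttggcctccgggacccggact
Of these 3 windows, only that of Igfbp7 held the GC box, with 4 matches that do not overlap. Of 32851 RefSeq promoter windows of the same length, 32.7% held at least 1. The TATA box TATAAA (12.4% of all windows), the AP-1 site TGACTCA (4.46%) and the FOXO site GTAAACA (3.17%) had no match in these 3 windows on either strand. The GC content was 52.8% for Igf1, 58.8% for Igfbp5 and 74.0% for Igfbp7, with a median of 52.4% over all windows. These 3 windows therefore shared none of the 4 motifs searched. Among the IGF genes not shown, the GC box was found in windows of Igf2, Igf1r, Igf2r and Igfbp2. It was not found in those of Igfbp3, Igfbp4 and Igfbp6.

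Igf1, the ligand that stimulates IGF1R and that fibroblasts and macrophages are known to make, differed between pairs in direction. In pair 1 its log2 ratio was -0.39 on the array with the bitransgenic tumour in Cy5 and -0.45 on the array with it in Cy3. In pair 2 it was 0.46 and 0.77. The pair means were thus 1.34-fold lower in pair 1 and 1.54-fold higher in pair 2. As log2 channel signal per mouse on this brightest probe, the neu tumours were nearly equal at 7.20 and 7.23. The bitransgenic tumours stood at 6.79 in pair 1 and 7.85 in pair 2. Both the lowest and the highest mouse were bitransgenic, so the genotypes overlapped. The mean over pairs was 0.10 ± 0.73 (SD, n = 2 pairs; 95% interval of the fit -0.97 to 1.17; limma adjusted p = 0.936).

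The second kept Igf1 probe was weaker but had the same signs, at -0.06 in pair 1 and 0.18 in pair 2. By mouse it gave 6.73 and 7.38 in neu and 6.67 and 7.56 in bitransgenic tumours. On this probe the neu tumours were thus not nearly equal, and both tumours of pair 2 lay above both of pair 1. A further probe that the array describes as the precursor of the IGF-IB form, and that carries no gene symbol, gave -0.08 and 0.05. The size of the Igf1 difference depended on the treatment of background: with the scanner's processed signals and loess it was -0.95 in pair 1 and 0.89 in pair 2.

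Igf2, the fetal growth factor that is transcribed from the paternal copy in most tissues, was among the 2 genes lower on all 4 arrays, where 12.4% of all genes were lower on all 4. Pair 1 gave -0.27 with the bitransgenic tumour in Cy5 and -0.02 in Cy3, and pair 2 gave -0.30 and -0.07. In both pairs the Cy5 array thus carried most of the difference. The 4 mice had log2 signals of 6.93 and 6.60 in bitransgenic and 7.08 and 6.78 in neu tumours. Each bitransgenic tumour lay below its own partner, yet the genotypes overlapped. The mean was -0.17 ± 0.03 (SD, n = 2 pairs; 95% interval -0.32 to -0.01), and it did not pass after adjustment (limma adjusted p = 0.513). The sign on one array of pair 1 turned without background correction, where it was 0.05, and in the authors' deposited value table, where it was 0.04. The second Igf2 probe was too dim to be kept, being well above background in 1 channel of 1 array. H19, the untranslated RNA that neighbours Igf2 and shares its imprinted control region, gave 0.05 in both pairs.

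Igf1r, the signalling receptor, gave 0.03 and -0.12 on the arrays of pair 1 and 0.15 and 0.31 on those of pair 2. Its mice lay close together, at 7.94 and 7.99 in neu and at 7.89 and 8.21 in bitransgenic tumours. The mean was 0.09 ± 0.19 (SD, n = 2 pairs; limma adjusted p = 0.777), and the 95% interval ran from -0.23 to 0.41. The other kept probe, which the array lists under a synonym, gave 0.05 in pair 1 and 0.15 in pair 2. One Igf1r probe found by name was left out as dim.

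Igf2r, the clearing receptor, was 1.65-fold lower in the bitransgenic tumour of pair 2. Its arrays gave -0.69 and -0.75 there, while the arrays of pair 1 disagreed in sign with each other, at 0.42 with the bitransgenic tumour in Cy5 and -0.28 in Cy3. A gap of that size between dye orientations of the same RNA means that pair 1 set no direction for this gene. By mouse, the neu tumour of pair 2 stood alone at 12.71, and the other 3 tumours lay between 11.98 and 12.09. The same neu tumour had the highest summed signal of the skeletal muscle list, at 6052 against 2691 to 3286 in the others, and of the adipocyte list, at 26564 against 8368 to 14088. That tumour was also the highest for the luminal epithelium list, at 150784 against 114960 to 127033. The part of muscle, fat or epithelium in the Igf2r value was not tested. The mean was -0.32 ± 0.56 (SD, n = 2 pairs; limma adjusted p = 0.713). In pair 2 the value ranged from -0.99 to -0.52 over 6 sources of values and scalings. M6pr, which encodes the smaller mannose-6-phosphate receptor, gave 0.04 in pair 1 and -0.43 in pair 2, and Ctsd, a lysosomal protease that these receptors sort, gave -0.95 and 0.18. Pair 2 thus held lower values of both mannose-6-phosphate receptors, and not of Ctsd.

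**Figure D2:**
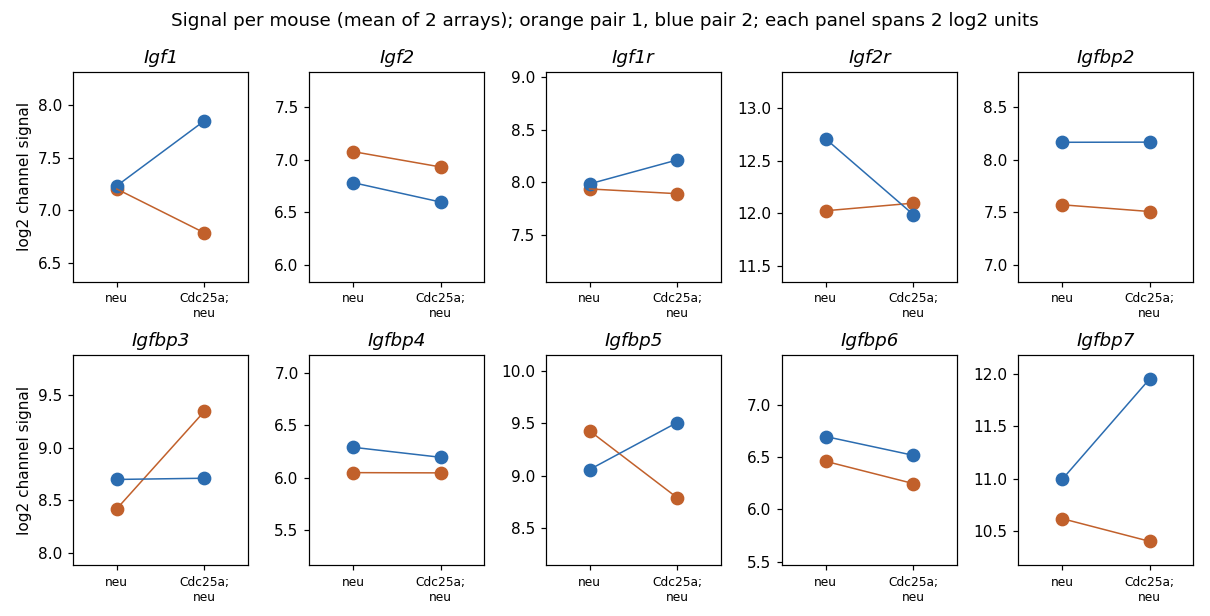
Log2 channel signal (vertical axis) of each IGF gene in the neu and the bitransgenic tumour of pair 1 (orange) and pair 2 (blue), each point being 1 mouse as the mean of its 2 arrays. Lines join the mice hybridised together, and each panel spans the same range of 2 log2 units. In Igf1, Igfbp5 and Igfbp7 the lines slope in opposite directions, in Igfbp3 the bitransgenic tumour of pair 1 stands above the rest, and in Igf2r the neu tumour of pair 2 does.

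Among the binding proteins, Igfbp3 showed the highest mean. IGFBP3 is the main carrier of IGFs in blood and is also known as a target of p53 and TGF-beta. Its brightest probe gave 1.02 and 0.83 on the arrays of pair 1, a 1.90-fold higher level in the bitransgenic tumour, and -0.12 and 0.14 on those of pair 2. Only 0.959% of all genes had a pair 1 ratio of at least that size in either direction. By mouse, the bitransgenic tumour of pair 1 was at 9.35, against 8.42 for its partner and 8.71 and 8.70 for the bitransgenic and the neu tumour of pair 2. Igfbp3 was therefore the one IGF gene whose genotypes did not overlap, although the mice of pair 2 were nearly equal, and both bitransgenic mice lay above both neu mice for 8.64% of all genes. The mean was 0.47 ± 0.65 (SD, n = 2 pairs; 95% interval -0.48 to 1.42; limma adjusted p = 0.657), and 3.55% of all genes had a mean of at least that size.

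A second Igfbp3 probe did not show the difference. Its arrays read 0.02 and 0.05 for pair 1, then 0.20 and -0.01 for pair 2, with pair means of 0.04 and 0.09. It was well above background on all 4 arrays in both tumours, but its mean log2 signal was 6.84 where that of the first probe was 8.79. Which part of the transcript each probe reads is not given in the files.

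Igfbp5, known for its rise in the involuting gland, gave -0.87 and -0.40 on the arrays of pair 1 and 0.32 and 0.57 on those of pair 2. It was thus 1.55-fold lower in the bitransgenic tumour of pair 1 and 1.36-fold higher in that of pair 2. The mice were at 8.79 and 9.51 in bitransgenic and at 9.43 and 9.06 in neu tumours. The genotypes overlapped fully, with bitransgenic mice at both ends. The mean was -0.09 ± 0.77 (SD, n = 2 pairs; limma adjusted p = 0.943).

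Igfbp7 had the largest ratio of any IGF gene in pair 2, where its arrays gave 1.04 and 0.87, a 1.94-fold higher level. In pair 1 they gave -0.25 and -0.18. Ratios of at least the pair 2 size were found in that pair for 1.69% of all genes. The bitransgenic tumour of pair 2 stood at 11.95, and the other 3 lay between 10.40 and 10.99. The mean was 0.37 ± 0.83 (SD, n = 2 pairs; 95% interval -0.84 to 1.58; limma adjusted p = 0.766).

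Igfbp6, which prefers IGF2 over IGF1, was the other gene lower on all 4 arrays, with pair 1 at -0.18 and -0.25 and pair 2 at -0.29 and -0.07. The bitransgenic mice stood at 6.25 and 6.52 and the neu mice at 6.46 and 6.69, each bitransgenic tumour below its partner and the genotypes overlapping. Its mean was -0.20 ± 0.02 (SD, n = 2 pairs; 95% interval -0.35 to -0.04; limma adjusted p = 0.496). The signal was near background, well above it on 3 of 4 arrays in bitransgenic and on 4 in neu tumours. The scanner's processed signals with loess gave -0.56. With median centring in place of loess, 1 array of pair 1 turned to 0.15.

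Igfbp2 and Igfbp4, which both limit IGF action, stayed within 0.1 of 0 in both pairs. Igfbp2 gave -0.06 and 0.00, with bitransgenic mice at 7.51 and 8.17 and neu mice at 7.57 and 8.17. Both tumours of pair 2 were thus higher than both of pair 1, without regard to genotype. The interval for its mean ran from -0.20 to 0.13, and with median centring pair 2 gave 0.19. Igfbp4 gave 0.00 and -0.10 on its brightest probe, with an interval of -0.23 to 0.13. Both Igfbp4 probes were dim: the brightest was well above background on 2 of 4 arrays in each genotype, and the other, at -0.05 and 0.26, on 2 arrays in bitransgenic tumours and on none (0) in neu. The flat Igfbp4 value depended on the treatment of background and scaling: processed signals with loess gave 0.17 and -0.33, median centring gave 0.04 and -0.32, and the authors' deposited value table gave -0.47 in pair 2.

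**Figure D3:**
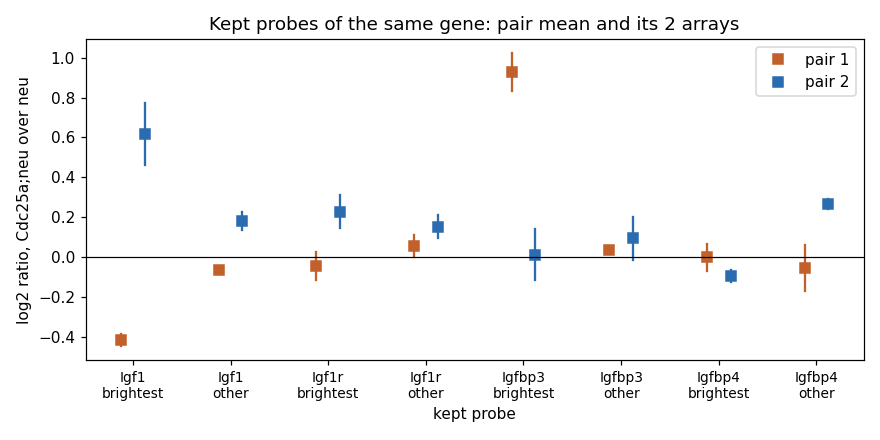
Log2 ratio of bitransgenic over neu (vertical axis) for every kept probe of the 4 IGF genes with more than 1 (horizontal axis). Squares are pair means and lines join the 2 arrays of a pair. The brightest Igfbp3 probe reaches 0.93 in pair 1 where the other gives 0.04, while the Igf1 probes share their signs but not their size.

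Set against all genes, 3 of 10 IGF genes were lower on both arrays of pair 1 and higher on both of pair 2, a pattern held by 7.59% of all genes. The reverse pattern was held by 0 IGF genes and by 5.91% of all genes. The distance between pairs was 1.04 for Igf1, 1.08 for Igfbp5 and 1.17 for Igfbp7 on the log2 scale, and pairs were at least as far apart as in Igf1 for 1.29% of genes, as in Igfbp3 for 1.68% and as in Igf2r for 2.5%. Within 0.25 of the gene on each of the 4 arrays lay 7 other genes for Igfbp3, 12 each for Igf2r and Igfbp7, 33 for Igfbp5 and 70 for Igf1. The pattern was found for Igf1 and Igfbp5 under all 6 sources of values and scalings, and for Igfbp7 under 5, the exception being median centring, where 1 array of pair 1 gave 0.30. In 1 direction on all 4 arrays, 2 genes were lower and 0 were higher, against 12.4% and 14.7% of all genes. With 2 mice against 2, an exact permutation test of a single gene cannot give a two-sided p below 0.333, the value found for Igfbp3. That test takes the mice as unpaired. With the 2 pairs kept, an exact sign test cannot give a two-sided p below 0.5.

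**Figure D4:**
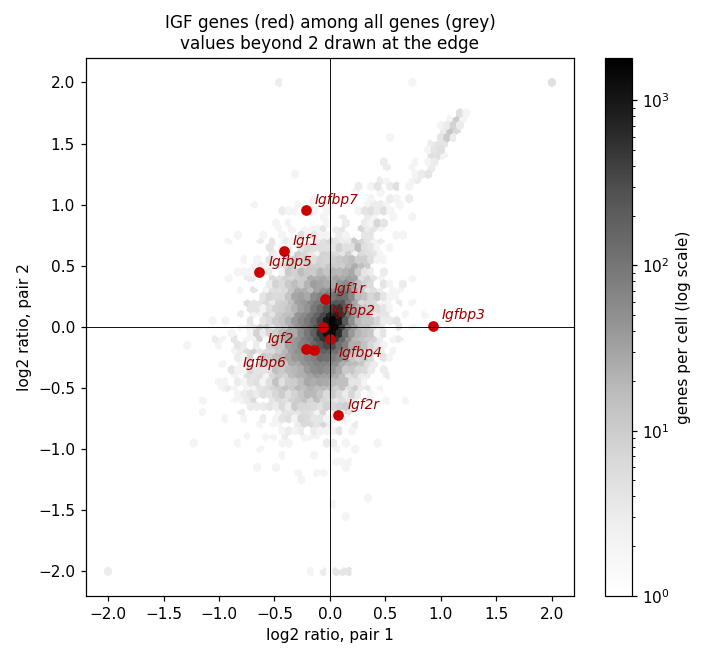
Log2 ratio of bitransgenic over neu in pair 1 (horizontal axis) and pair 2 (vertical axis), with all 32651 genes as grey cells shaded by their number on a log scale (values beyond 2 in size drawn at 2) and the IGF genes in red. Igf1, Igfbp5 and Igfbp7 lie at the upper left, Igfbp3 lies far to the right near 0 in pair 2, and Igf2r lies low near 0 in pair 1.

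Markers of some other cell types moved with these pair differences. Of 20 macrophage and myeloid genes, 10 were lower on both arrays of pair 1 and higher on both of pair 2. So were 9 of 20 fibroblast and stroma genes, against 7.59% of all genes. The pattern was also held by 5 of 14 myoepithelium and 3 of 19 endothelium genes. It was held by 0 of 20 adipocyte, 1 of 19 luminal, 2 of 15 lymphocyte and 1 of 15 skeletal muscle genes. The medians were -0.38 and 0.33 for the macrophage list and -0.18 and 0.16 for the fibroblast list. The summed linear signal of the macrophage list was 16489 and 52143 in bitransgenic tumours and 21947 and 22521 in neu tumours. Much of it came from the lysozyme genes Lyz1 and Lyz2, which gave 2.02 and 2.03 in pair 2. Without them, a choice made after their values were seen, the sum was 9949 and 15407 against 13031 and 13532. For the fibroblast list it was 4459 and 14276 against 5718 and 8130. That sum weighs bright genes most. The 2 brightest, Col1a1 and Fbln2, gave 1.60 and 1.38 in pair 2, where the list median was 0.16. The bitransgenic tumour of pair 2, in which Igf1, Igfbp5 and Igfbp7 were highest, was the highest for both lists, and the bitransgenic tumour of pair 1 was the lowest for both. All 20 genes of each list passed the filter on dim probes. Well above background in every channel were 17 and 14 of them, against 27111 of all 32651 genes. The part of these cells in the IGF differences was not tested, and in bulk tumours fewer cells of a type cannot be told apart from less RNA per cell.

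Not all stromal genes followed. Dcn, a collagen-binding proteoglycan, had a mean of -0.83, and Lum, a related one, had -0.34, both lower on all 4 arrays as Igf2 and Igfbp6 were. Among myeloid genes, Aif1 gave -0.54 and -0.27 and the NADPH oxidase subunit Cybb gave -0.44 and -0.27. Their second probes gave -0.42 and -0.41 for Aif1, and -0.06 and -0.05 for Cybb. The adipocyte list was lower in both pairs too, with medians of -0.30 and -0.59, and with 11 of 20 genes lower on all 4 arrays and 2 higher (12.4% and 14.7% of all genes). Its summed signal was 8368 and 8794 in bitransgenic and 14088 and 26564 in neu tumours. Its 2 genes with the largest ratios in both pairs, among those with 1 sign on all 4 arrays, were Cfd at -3.55 and Fabp4 at -2.71 in the mean. The other Fabp4 probes gave means of -2.43 and -0.74. The 2 higher ones were the fatty acid transporter gene Cd36, at 0.88 and 0.57, and the lipase gene Lipe, at 0.16 and 0.24. The part of fat cells in the lower Igf2 and Igfbp6 values was not tested.

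The remaining marker lists had these values. The endothelium list had medians of 0.03 and 0.06, with Kdr at 0.26 and Robo4 at 0.15 in the mean, and 3 of its 19 genes had the pattern of Igf1 (7.59% of all genes). The myoepithelium list had -0.05 and 0.10, with Lamb3 at -0.55 and Myh11 at 0.06, and 5 of its 14 genes had that pattern, again against 7.59%. The bitransgenic tumour of pair 2 also had the highest summed signal of these 2 lists. It was at 6038 against 3953 to 5361 for endothelium and at 19786 against 10460 to 13848 for myoepithelium. The bitransgenic tumour of pair 1 was the lowest for neither. The luminal list had medians of 0.03 and -0.12, with the milk protein genes Lalba at -1.33 and Csn2 at 1.46. The lymphocyte list had 0.00 and -0.09, with Zap70 at -0.29 and Cd79a at 0.09. The skeletal muscle list had 0.02 and -0.56, with Myog at -0.13 and Atp2a1 at 0.12. The second Atp2a1 probe gave a mean of -0.07. Some contractile genes of that list were far lower in pair 2, such as Tnni2 at -2.38 and Myl1 at -2.25. Pair 1 gave 0.07 and -0.11 for these 2. Others were not far lower, such as Myh2 at -0.25 and Myh1 at 0.13 in pair 2.

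**Figure D5:**
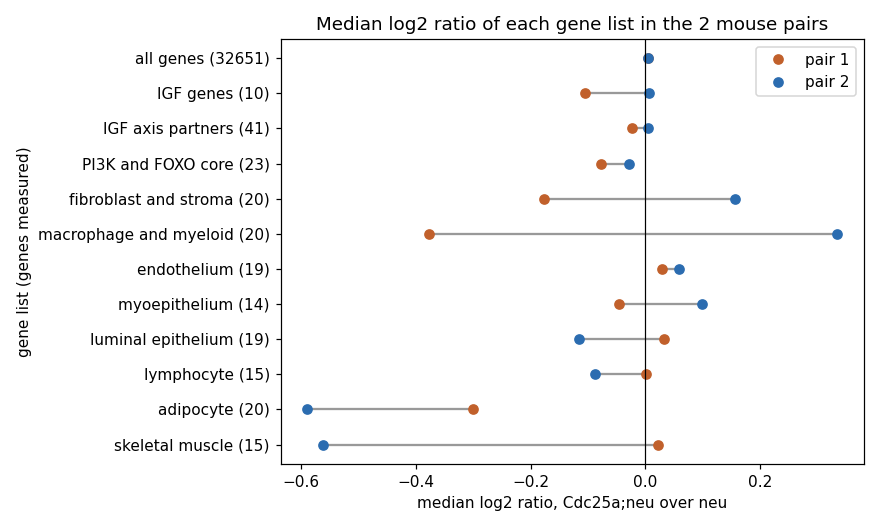
Median log2 ratio of bitransgenic over neu (horizontal axis) of each gene list (vertical axis, with the number of genes measured) in pair 1 (orange) and pair 2 (blue). The macrophage and fibroblast lists lie below 0 in pair 1 and above 0 in pair 2, the adipocyte list lies below 0 in both, and the IGF partner and PI3K lists lie near 0.

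Further genes of the IGF axis were taken from a list of 46, of which 41 were measured. The list holds the insulin receptor and its substrates, adaptors, growth hormone and prolactin signalling, proteases and inhibitors that act on binding proteins, and the RNA-binding proteins of Igf2 transcripts. None (0) passed the limma test after adjustment (lowest adjusted p = 0.466), and at an unadjusted p under 0.05 there were 6 lower and 0 higher. All genes gave 5.73% lower and 3.9% higher at that p. On all 4 arrays, 8 of the 41 were lower and 4 were higher, against 12.4% and 14.7% of all genes. The median was -0.02, against 0.00 over all genes. The pattern of Igf1 was held by 5 of the 41 and its reverse by 3, against 7.59% and 5.91% of all genes.

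Among partners with 1 sign on all 4 arrays, the 8 with the largest ratios in both pairs were mainly lower. Grb10, an adaptor that restrains insulin and IGF receptors, gave -0.98 in pair 1 and -0.59 in pair 2 on its brightest probe, while its other probe gave 0.09 and -0.02. Grb14, a related adaptor, gave -0.47 and -0.26. Socs2, which dampens growth hormone signalling, gave -0.45 and -0.25. Stc2, an inhibitor of the protease that cuts IGFBP4, gave -0.58 and -0.23, and the prolactin receptor gene Prlr gave -0.23 and -0.65, with 0.01 and -0.24 for its second probe. Gab1, a docking protein, gave -0.11 and -0.26. Rack1 and Ptpn1, which had a mixed sign on the arrays, gave means of -0.20 and -0.17, both at an unadjusted p under 0.05. On the higher side, the substrate gene Irs4 gave 0.15 and 0.38, with -0.03 and -0.12 for its second probe, and the matrix gene Ccn1, whose product shares a domain with the binding proteins, gave 0.11 and 0.35. None of the 8 with 1 sign passed the test after adjustment (limma adjusted p from 0.466 to 0.542).

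The related genes outside the 10, Igfbp1 and Igfbpl1, gave means of 0.02 and -0.05. The insulin receptor gene Insr and the substrate gene Irs1 gave -0.02 and -0.03. In the PI3K and FOXO list, 23 of 26 genes were measured, 0 passed after adjustment (lowest limma adjusted p = 0.504), and the median was -0.08. The phosphatase gene Inppl1, whose product removes a phosphate from the lipid that PI3K makes, gave -0.33 in the mean. The kinase gene Pdpk1, which activates AKT, gave -0.22, and Rptor, of the mTOR complex, gave 0.13. None of the 23 genes had the pattern of Igf1, against 7.59% of all genes.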

How the data were processed

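Spot intensities of the 4 arrays were deposited by the authors as scanner files, per the file headers from Agilent Feature Extraction 7.5.1 (7.2 in the submitters' processing notes), with background-subtracted, dye-normalized processed signals. The deposited log10 ratios are red over green per the file headers. The authors' deposited value table was found to hold natural log ratios of red over green (slopes of 2.27 to 2.29 against the scanner's log10 ratio). Its centring is unknown, with column medians of 0.0007 to 0.0209, and it served as an alternative.

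Intensities were corrected by normexp (offset 50) and normalized by loess within arrays in limma 3.58.1 (R 4.3.3). Control and outlier-flagged spots were left out (9 to 87 flagged spots an array). Kept were probes that stood well above background, in either channel, on 2 or more of the 4 arrays, and the brightest stood for its gene (37173 probes, 32651 genes). Swapped arrays were turned and the arrays of a pair averaged. Levels per mouse came from Aquantile-normalized channels, and set no gene against another. Limma tested the mean of the 2 pair log2 ratios against 0, two-sided, with Benjamini-Hochberg adjustment, and was tested on simulated data, where its share of false calls ran above the threshold. Probes were named by accession, symbol, accession column or synonym in a GRCm38.p6 RefSeq table, or kept the array name (20297 of 41174 probes). The labels give separate mice, so the spread is between animals, and the number of pairs limits the precision.

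The IGF genes, lists and naming rules were chosen with earlier results of these data known. Named were all IGF genes, Cdc25a, Erbb2, up to 8 IGF partners, 4 PI3K genes and 2 genes per marker list with 1 sign on all 4 arrays, ranked by the smaller pair ratio. One item that the rule names is not reported here. H19, M6pr, Ctsd, Cd36, Lipe, Tnni2, Myl1, Myh1, Myh2, Lyz1 and Lyz2 were named after their values were seen. So were Col1a1, Fbln2, Rack1, Ptpn1, Insr, Irs1, Igfbp1 and Igfbpl1. Genes most like an IGF gene were to be named only for those with 1 sign on all 4 arrays and a mean of at least 0.25 in size, and 0 qualified. The pairing is that of joint hybridisation. The deviations of mice hybridised together correlated at 0.65 over genes, and such mice share arrays. The alternatives were other background corrections, scalings, filters, probe rules, variance models and units of replication, and left-out arrays and pairs.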

Additional observations from a re-analysis of the deposited data

Results flagged for a closer look

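Igf1, Igfbp5 and Igfbp7 were flagged because every array of pair 1 lay below 0 and every array of pair 2 above 0. Of all genes, 7.59% had this pattern. Igf1 was at -0.42 in pair 1 and 0.62 in pair 2. Igfbp5 was at -0.64 and 0.45, and Igfbp7 at -0.22 and 0.96. With median centring, 1 array of pair 1 gave 0.30 for Igfbp7. The difference between the pairs was not tested, since each pair holds 1 mouse per genotype, and the arrays of a pair repeat the same RNA.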

How the results depend on the processing

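None (0) of the IGF genes, none (0) of their probes and none (0) of the partner genes passed in the limma fit as described, nor did any of all genes, with 3146 at an unadjusted p under 0.05. With median centring in place of loess, 975 genes passed (lowest limma adjusted p = 4.03e-48), among them 1 IGF gene, 1 IGF probe and 1 partner gene. The IGF gene was Igfbp3 at 0.54 (limma adjusted p = 0.0278, over alternatives from 0.0278 to 1.000). That fit also rests on n = 2 pairs. Median centring left the dye orientations of pair 1 further apart for Igfbp3, at 1.47 and 0.27, against 1.02 and 0.83 with loess. The call is therefore not taken as a result. Fits that took the 4 arrays as units called 895 genes, or 912 with the pair as a random block, each with 1 partner gene and no IGF gene (0), and count technical repeats as replicates. Separate channels per mouse with no replicate block called 0 genes, and leaving out any 1 array also called 0.

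Of 177 recomputed IGF gene means, 163 kept direction and, where there was a test, side of the threshold. A further 13 turned in sign and 1 (Igfbp3) passed. Changes of filter, variance model or unit of replication left each mean unchanged, so those recomputations say nothing about its direction. Igf2 and Igfbp6 kept their sign in all 18 and 17 recomputations, from -0.33 to -0.10 and from -0.56 to -0.14. Leaving out arrays or pairs could not turn these 2 genes, since both lay below 0 on all 4 arrays. Only other background corrections, scalings and sources of values could have done so. Igfbp3 ranged from 0.01 to 0.93, with 0.27 as the mean of its probes. Igf1 turned to -0.029 with processed signals and loess, -0.031 with the scanner's ratio and -0.037 with the authors' table. Igfbp2 turned to 0.076 with median centring and Igfbp4 to 0.028 with the mean of its probes. The causes were not tested. Without 1 array or 1 pair, Igf1 ran from -0.42 to 0.62, Igf1r from -0.045 to 0.23, Igf2r from -0.72 to 0.072, Igfbp2 from -0.10 to 0.036, Igfbp5 from -0.64 to 0.45 and Igfbp7 from -0.22 to 0.96. With 1 pair left out there is a value but no test. Igfbp4, Igfbp6 and the dimmer probes lie near background, where offset and background correction set the size of a ratio.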
